A study of Homo sapiens with 18 samples.

Results

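ANKRD1 and 9 other genes of the YAP-TEAD pathway were followed through an RNA-seq experiment on hyaluronan (HA) and oxidative stress in IMR90 cells, primary human lung fibroblasts. The genes were taken by symbol, as 10 rows of the 56269 in the deposited table of normalized counts: ANKRD1, CTGF, CYR61, AMOTL1, AMOTL2, AXL, LATS2, TEAD1, YAP1 and WWTR1. ANKRD1 was chosen by its measured fall after oxidative stress in PBS-treated cells, so that comparison is given as a description and nothing is read from its calls. All 10 had reads in every library and passed the filter on low values.

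Before any stress the cells received a 6 h pre-incubation, either in PBS or in 20 µg/ml of HA from naked mole-rat skin fibroblasts (NSF-HA). The HA was either control NSF-HA (cNSF-HA), heated with hyaluronidase that had already been inactivated, or NSF-HA partly fragmented by active hyaluronidase (fNSF-HA). The unstressed cells were collected at the end of the pre-incubation. The stressed cells then lost the HA or PBS medium, received 200 µM of the oxidant tert-butyl hydroperoxide (tBHP) for 1 h and were collected 6 h after tBHP was added. The 3 pre-incubations, each without and with tBHP, gave 6 groups of 3 libraries. No unstressed group was collected at the later time, so tBHP cannot be told apart from the further 6 h of culture and the change of medium, and a change with tBHP below means the difference between these groups. IMR90 is a single fibroblast strain grown in culture, and all 18 libraries share it. The study's methods call its replicates biological and do not say how the 3 libraries of a group were separated, so p-values measure the spread between these libraries.

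YAP (gene YAP1) and TAZ (gene WWTR1) are transcriptional co-activators without a DNA-binding domain of their own. In the nucleus they bind TEAD factors, which recognize a short DNA motif near target genes such as CTGF, CYR61 and ANKRD1. The Hippo kinases, among them LATS2, phosphorylate YAP and TAZ and keep them out of the nucleus, and angiomotins such as AMOTL1 and AMOTL2 hold them in the cytoplasm. In fibroblasts the pathway is known to respond to cell density, matrix stiffness and the actin cytoskeleton. Several of its restraints, LATS2 and AMOTL2 included, are themselves YAP targets.

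On GRCh38 with GENCODE 29 gene models, ANKRD1 lies on the minus strand of chromosome 10 (90912096 to 90921276) and CTGF on the minus strand of chromosome 6 (131948176 to 131951373). CYR61 is on the plus strand of chromosome 1 (85580761 to 85583962), and WWTR1 on the minus strand of chromosome 3 (149517235 to 149736714). YAP1 and TEAD1 are both on the plus strand of chromosome 11, at 102110461 to 102233423 and at 12674591 to 12944483. Promoters that hold the TEAD motif are shown for ANKRD1, CTGF and AMOTL2, which are 3 of the genes whose levels fell with tBHP. RefSeq promoter windows on build GRCh38.p14 matched 8 of the 10 genes, CYR61 and TEAD1 having no entry, and gave 11 windows. Each of the 3 sequences below is the 250 bases just upstream of a RefSeq transcript start, read 5′ to 3′ on the gene's strand, with the TEAD motif GGAATG, or its reverse complement CATTCC, in capitals. CTGF is listed under its current symbol CCN2, and the AMOTL2 window is the second of the gene's 2 starts.
ANKRD1, chr10:90921088-90921337, minus strand: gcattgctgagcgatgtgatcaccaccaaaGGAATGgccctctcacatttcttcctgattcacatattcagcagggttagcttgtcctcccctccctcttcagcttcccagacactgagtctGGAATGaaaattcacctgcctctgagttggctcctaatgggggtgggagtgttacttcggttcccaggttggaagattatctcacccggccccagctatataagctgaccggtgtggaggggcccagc
CTGF, chr6:131951373-131951622, minus strand: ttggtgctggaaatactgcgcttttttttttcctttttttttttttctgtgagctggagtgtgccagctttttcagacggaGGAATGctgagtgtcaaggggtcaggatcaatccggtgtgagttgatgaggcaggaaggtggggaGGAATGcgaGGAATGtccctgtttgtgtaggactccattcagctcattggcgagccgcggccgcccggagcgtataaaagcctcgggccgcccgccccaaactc
AMOTL2, chr3:134374448-134374697, minus strand: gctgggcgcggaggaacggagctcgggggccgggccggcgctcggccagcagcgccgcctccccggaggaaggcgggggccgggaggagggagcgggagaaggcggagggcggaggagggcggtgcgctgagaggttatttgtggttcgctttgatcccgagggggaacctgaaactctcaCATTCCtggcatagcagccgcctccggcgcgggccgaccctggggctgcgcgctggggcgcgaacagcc
The ANKRD1 window held 2 copies, starting 220 and 128 bases before the transcript start. The CTGF window held 3, starting 169, 104 and 95 bases before it, and the AMOTL2 window 1 copy, 69 bases before it. YAP1 and 1 of the 2 AXL windows also held 1 copy each. The first AMOTL2 window, the other AXL window, AMOTL1, LATS2 and both WWTR1 windows held none. Of all 35116 RefSeq windows of this length, 11.9% held the motif on either strand, 0.928% held at least 2 copies and 0.0797% at least 3. A match of these 6 letters is a description of the window and not evidence of binding.

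Levels of the 10 genes in unstressed PBS-treated cells, as normalized counts per kilobase of exon, spanned the range from LATS2, at 217, to CTGF, at 14181. The secreted matricellular proteins CTGF and CYR61 (8005) led, followed by AXL (5042), a receptor tyrosine kinase. TEAD1 (1048), YAP1 (963) and AMOTL2 (911) stood close together, and WWTR1 (436), ANKRD1 (334) and AMOTL1 (316) were lower. The fibroblast identity of the cells was checked with 8 marker genes such as COL1A1, VIM and PDGFRB, all of which had reads in each library and which summed to 452013 to 717947 normalized counts. Epithelial, endothelial and immune markers summed to at most 14.5, 25.1 and 11.3 in any library. Library depth was 20261103 to 26287660 reads on genes, and 1 read was worth 0.865 to 1.14 normalized counts. The median SD of a gene within its group, on the log2 scale, was 0.0761 without tBHP and 0.206 with it. cNSF-HA replicate 3 and fNSF-HA replicate 2, both with tBHP, stood farthest from their groups. Results of the 10 genes that rest on them are also given without both or 1 of them. Counts and medians of the other gene lists are given with all 18 libraries only. The correlation of a library's deviation from its group with transcript GC content reached -0.77 in fNSF-HA replicate 2 and 0.75 in fNSF-HA replicate 3 with tBHP, against -0.15 to 0.17 in unstressed libraries.

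ANKRD1 was the member whose level differed most between stressed and unstressed cells. It encodes a nuclear and sarcomeric ankyrin repeat protein and is widely read as a YAP-TEAD target. Its normalized counts in PBS-treated cells were 686, 613 and 686 without tBHP and 73.8, 95.8 and 103 with it. In cells pre-incubated with cNSF-HA they were 677, 628 and 608 without tBHP and 121, 114 and 129 with it. After fNSF-HA they were 688, 675 and 730 without and 167, 93.6 and 87.7 with tBHP. The 9 stressed libraries and the 9 unstressed libraries did not overlap: the lowest unstressed value, 608, was 3.65 times the highest stressed value, 167. PBS replicate 1 without tBHP also held transcripts of the muscle myosins MYH6 (80.1 normalized counts) and MYH7 (59.9), which were at 0 in the other 17 libraries. Its ANKRD1 value was that of PBS replicate 3 to within 1 count, and without it the log2 change of ANKRD1 with tBHP after PBS was -2.84, against -2.86 with it.

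**Figure D1:**
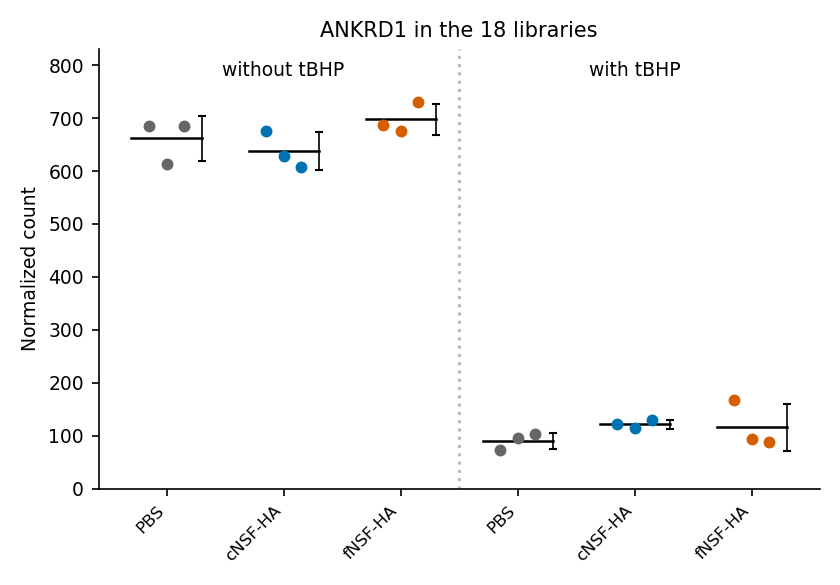
Normalized count of ANKRD1 (y axis, linear, from 0) in the 18 libraries by pre-incubation, without tBHP on the left and with it on the right. Points are libraries, horizontal lines group means and error bars SD (n = 3). All 9 libraries with tBHP lie at or below 167, and all 9 without it at or above 608.

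The difference between stressed and unstressed cells, called the tBHP response, was tested in cells pre-incubated with HA. Their libraries were not in the comparison that chose ANKRD1, but the 10 genes were chosen with earlier results of these data known. limma was fitted to log2(normalized count + 1) over all 13686 genes with a mean of at least 10, and p-values were adjusted by Benjamini-Hochberg over those genes. ANKRD1 fell 5.22-fold after cNSF-HA (log2 change -2.38, 95% interval -2.75 to -2.02, adjusted p = 7.0e-09) and 6.23-fold after fNSF-HA (log2 change -2.64, interval -3.01 to -2.27, adjusted p = 1.8e-09). The PBS-treated cells, given as a description, had a level 7.28-fold lower with tBHP (log2 change -2.86). Means ± SD (n = 3) with tBHP were 90.8 ± 15.2 after PBS, 121 ± 7.73 after cNSF-HA and 116 ± 44.0 after fNSF-HA. In order of mean level the groups ran fNSF-HA, PBS and cNSF-HA without tBHP, then cNSF-HA, fNSF-HA and PBS with it, and the only neighbours in that order whose libraries did not overlap were the lowest unstressed and the highest stressed group.

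Among the other 9 genes, most of those that passed were lower in the stressed cells, and WWTR1 was higher. After cNSF-HA 7 of the 10 genes fell and 1 rose, where 26.8% of all genes tested fell and 24% rose. The number that fell after cNSF-HA was 5 without the filter on low values, where 3552 of 31441 genes fell. It was also 5 without any single unstressed cNSF-HA library, where 3171 to 3305 of 13686 genes fell. Without cNSF-HA replicate 3 with tBHP it was 5 as well, where 3298 of all genes fell. With edgeR it was 4, where 3253 fell, and without cNSF-HA replicate 2 with tBHP it was 9, where 3500 fell. After fNSF-HA 6 fell and 1 rose, where 22.7% of all genes fell and 19.2% rose. In PBS-treated cells 4 were lower and 1 higher past the same threshold, beside 26.9% and 24.2% of all genes, and nothing is read from that count because the comparison chose ANKRD1. The 10 genes had a median log2 change of -0.30 after either HA, against 0.00 and -0.03 over all genes, and without cNSF-HA replicate 3 with tBHP the first median was -0.185. All 3 stressed libraries lay outside the range of the 3 unstressed ones for 9 of the 10 genes after cNSF-HA and for 7 after fNSF-HA, as they did for 63.7% and 48.7% of all genes. The share of reads on mitochondrial genes moved with the same groups, from 2.48% to 2.64% over the 9 unstressed libraries and from 2.69% to 3.51% over the 9 stressed ones, and its part in these changes was not tested.

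**Figure D2:**
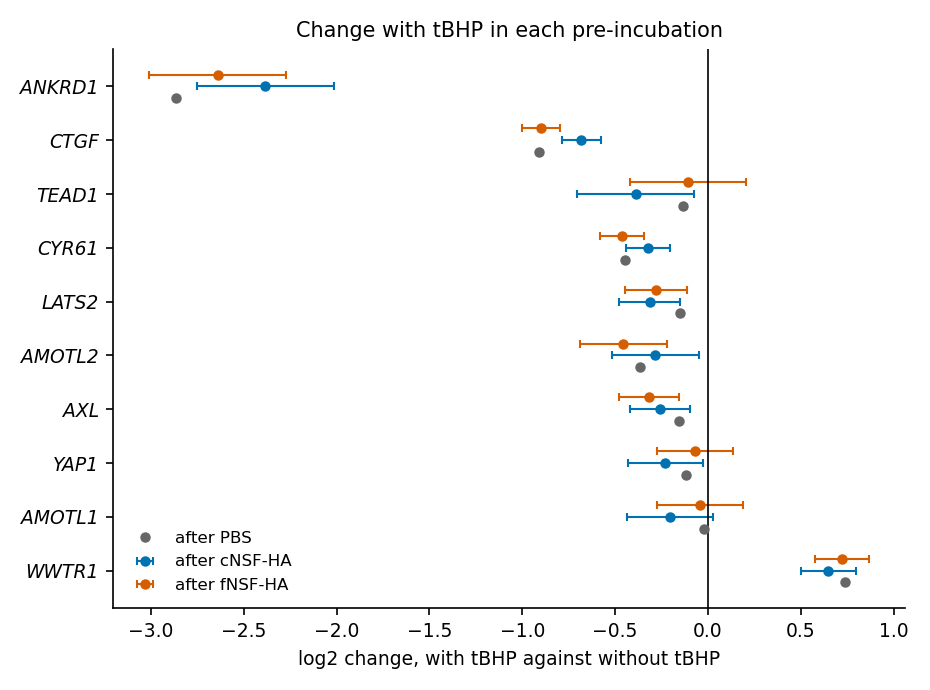
The log2 change with tBHP against without tBHP (x axis) for each of the 10 genes (y axis) after PBS, cNSF-HA or fNSF-HA. Points are estimates from limma, and bars, drawn for both HA preparations, are 95% intervals from the spread of all 18 libraries. ANKRD1 lies between -2.86 and -2.38, CTGF between -0.91 and -0.68, and WWTR1 between 0.65 and 0.74.

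CTGF and CYR61, secreted proteins that bind integrins and growth factors and the most used readouts of YAP-TEAD activity, fell by less than ANKRD1 and with little spread. CTGF counted 33468, 33187 and 32857 in PBS-treated cells, 31057, 31665 and 32253 after cNSF-HA and 33174, 33667 and 32840 after fNSF-HA. With tBHP it counted 17854, 17750 and 17327 after PBS, 19810, 19034 and 20354 after cNSF-HA, and 18620, 17605 and 17250 after fNSF-HA. Stressed and unstressed libraries did not overlap, and within the stressed cells each cNSF-HA library was above each of the other 6. The fall of CTGF was 1.60-fold after cNSF-HA (log2 change -0.68, 95% interval -0.79 to -0.58, adjusted p = 6.1e-09) and 1.86-fold after fNSF-HA (log2 change -0.90, interval -1.003 to -0.795, adjusted p = 1.6e-10). After PBS the level was 1.88-fold lower.

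CYR61 ranged from 18994 to 20208 over the 9 unstressed libraries and from 13370 to 16202 over the 9 stressed ones, again without overlap. It fell by 0.32 on the log2 scale after cNSF-HA (adjusted p = 0.00016) and by 0.46 after fNSF-HA (adjusted p = 4.3e-06). After PBS its log2 change was -0.45. CTGF shares 195 exonic bases (8.34% of its exons) with AL133346.1 on the other strand, and the library kit does not keep strand, so reads there cannot be told apart.

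On the Hippo side of the pathway AMOTL2 and LATS2 fell by small amounts. AMOTL2, an angiomotin that retains YAP at junctions, counted 5586, 5461 and 5302 after PBS, 5472, 5384 and 5584 after cNSF-HA and 5449, 5262 and 5483 after fNSF-HA in unstressed cells. With tBHP it counted 5058, 3950 and 3772, then 4797, 4761 and 3999, then 4010, 3290 and 4608 in the same order of groups. Every stressed library was below every unstressed one, but the stressed libraries spread widely. AMOTL2 fell by 0.46 on the log2 scale after fNSF-HA (adjusted p = 0.0029) and by 0.28 after cNSF-HA (adjusted p = 0.041). The second call was lost without the 2 libraries that stood apart (log2 change -0.20, adjusted p = 0.055), with edgeR on the recovered reads (adjusted p = 0.13) and without cNSF-HA replicate 3 with tBHP alone (adjusted p = 0.19). It was also lost without any single unstressed cNSF-HA library (adjusted p = 0.073 to 0.10) and without the filter on low values (adjusted p = 0.083). AMOTL2 shares 187 exonic bases (3.13%) with the pseudogene RPL39P5 on the same strand. With each library's trend on GC content and transcript length removed, the fall after cNSF-HA was 0.48 (log2 change -0.48, adjusted p = 4.9e-07).

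LATS2, a kinase that phosphorylates YAP and TAZ, ranged from 1185 to 1274 without tBHP and from 855 to 1148 with it. It fell by 0.31 on the log2 scale after cNSF-HA (adjusted p = 0.0030) and by 0.28 after fNSF-HA (adjusted p = 0.0086), and the first fall was 0.20 without cNSF-HA replicate 3 with tBHP (log2 change -0.20, adjusted p = 0.011). AXL ranged from 25633 to 27409 without and from 19470 to 25789 with tBHP, the ranges meeting only in the highest stressed library, PBS replicate 1. It fell by 0.26 after cNSF-HA (adjusted p = 0.0091) and by 0.32 after fNSF-HA (adjusted p = 0.0027), the first being lost with edgeR (adjusted p = 0.055). AMOTL1 ranged from 3048 to 3287 without and from 2132 to 3420 with tBHP, with overlap, and its log2 changes of -0.20 after cNSF-HA and -0.04 after fNSF-HA did not pass the test (adjusted p = 0.13 and 0.80). The first was -0.30 and passed without cNSF-HA replicate 2 with tBHP (adjusted p = 0.042), and was -0.02 without replicate 3 of that group (adjusted p = 0.86). AMOTL1 and AXL share 4.94% and 1.30% of their exonic bases with genes on the other strand.

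The co-activators YAP1 and WWTR1 parted. WWTR1, which encodes TAZ, counted 3586, 3786 and 3628 after PBS, 3544, 3435 and 3633 after cNSF-HA and 3582, 3836 and 3622 after fNSF-HA without tBHP. With tBHP the same groups counted 6012, 6083 and 6217, then 5873, 5716 and 5071, then 5922, 6718 and 5627. No stressed library came near the unstressed range, whose highest value was 3836. WWTR1 rose 1.57-fold after cNSF-HA (log2 change 0.65, 95% interval 0.50 to 0.80, adjusted p = 7.6e-07) and 1.65-fold after fNSF-HA (log2 change 0.72, interval 0.58 to 0.87, adjusted p = 2.2e-07). In PBS-treated cells it was 1.67-fold higher with tBHP. With the GC and length trend removed the rise after cNSF-HA was larger (log2 change 0.97). It was the only one of the 10 genes to rise in either HA response. WWTR1 shares 795 exonic bases (9.45%) with its antisense gene WWTR1-AS1, so reads there cannot be told apart.

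YAP1 counted 5727, 6187 and 6267 after PBS, 5460, 5838 and 5999 after cNSF-HA and 6306, 6485 and 6265 after fNSF-HA in unstressed cells. With tBHP it counted 5284, 5899 and 5540 after PBS, 5176, 5310 and 4321 after cNSF-HA and 5956, 7168 and 5183 after fNSF-HA. The lowest and the highest stressed values belonged to cNSF-HA replicate 3 and fNSF-HA replicate 2. Its log2 changes with tBHP were -0.12 after PBS, -0.23 after cNSF-HA (adjusted p = 0.057) and -0.07 after fNSF-HA (adjusted p = 0.59), and neither tested change passed. Without the 2 libraries that stood apart the changes were -0.14 after cNSF-HA (adjusted p = 0.072) and -0.19 after fNSF-HA (adjusted p = 0.013), so the second passed, where 54.9% and 55.4% of all genes passed. The call after cNSF-HA was gained when only those groups were fitted (adjusted p = 0.042) and without cNSF-HA replicate 2 with tBHP (adjusted p = 0.039). With the GC and length trend removed the YAP1 change after cNSF-HA was -0.02 (adjusted p = 0.79). YAP1 shares 628 exonic bases (9.98%) with AP000942.2 on the other strand, where reads cannot be told apart.

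TEAD1, the DNA-binding partner, leaned on the same 2 libraries. It counted 10361, 10944 and 11000 after PBS, 10191, 10525 and 10822 after cNSF-HA and 10937, 11195 and 11188 after fNSF-HA in unstressed cells. With tBHP it counted 9562, 10560 and 9296 after PBS, 9677, 9302 and 5731 after cNSF-HA and 10040, 12705 and 8608 after fNSF-HA. cNSF-HA replicate 3 was far below all other libraries and fNSF-HA replicate 2 above all of them. TEAD1 fell by 0.39 on the log2 scale after cNSF-HA (adjusted p = 0.037) and did not pass after fNSF-HA (log2 change -0.11, adjusted p = 0.60). Without both libraries it fell by 0.15 after cNSF-HA (adjusted p = 0.047) and by 0.26 after fNSF-HA (adjusted p = 0.0014). TEAD1, WWTR1, ANKRD1 and YAP1 have the lowest GC contents of the 10, taken from the longest transcript of each gene. They are at 41.3%, 40.9%, 43.3% and 43.5%, against 48.8% to 56.7% in the others. With each library's trend on GC content and length removed, the TEAD1 change after cNSF-HA was -0.01 and no longer passed (adjusted p = 0.93), and after fNSF-HA it turned to 0.09 (adjusted p = 0.28). In PBS-treated cells the removal turned TEAD1 from -0.14 to 0.15 and YAP1 from -0.12 to 0.04. The TEAD1 call after cNSF-HA was also lost without any single unstressed cNSF-HA library (adjusted p = 0.061 to 0.094). It was lost as well with edgeR (adjusted p = 0.099), without the filter on low values (adjusted p = 0.074), when only those groups were fitted (adjusted p = 0.073) and without cNSF-HA replicate 3 with tBHP alone (log2 change -0.15, adjusted p = 0.28). The part of GC content in these values was not tested further.

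**Figure D3:**
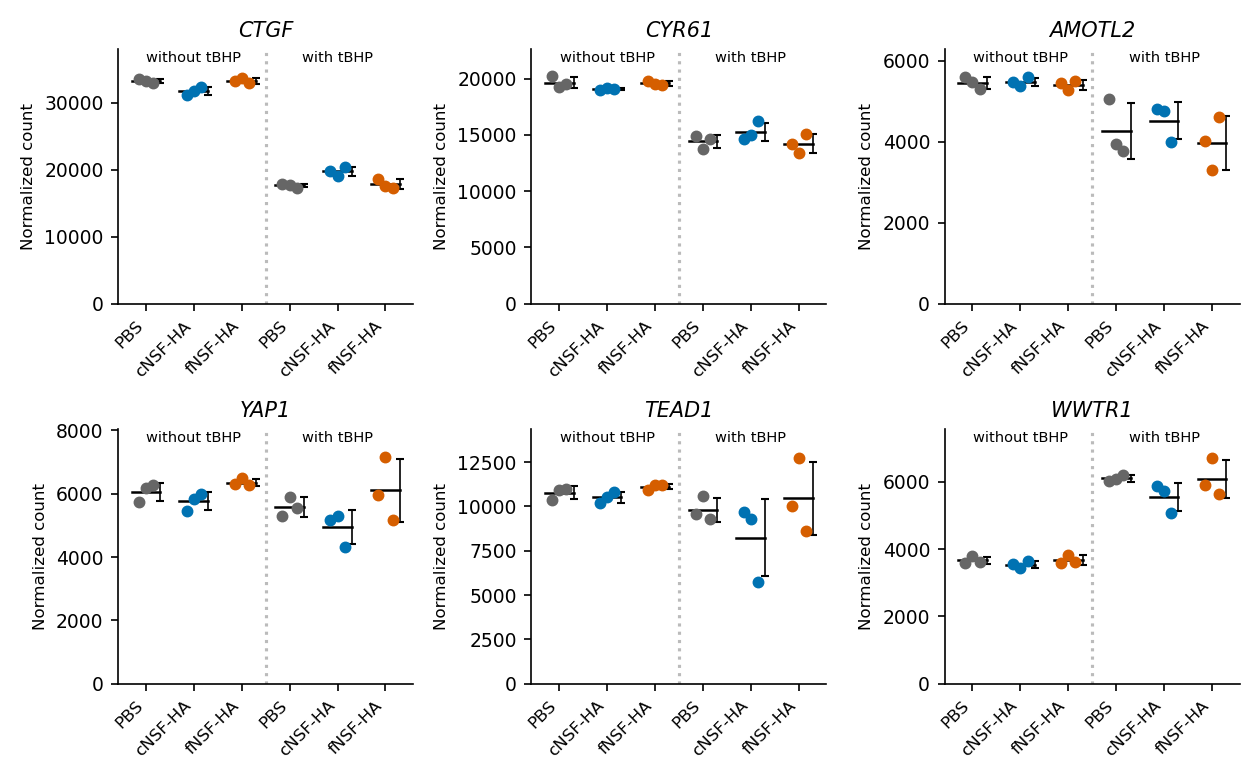
Normalized counts (y axes, linear, from 0) of CTGF, CYR61, AMOTL2, YAP1, TEAD1 and WWTR1 in the 18 libraries by pre-incubation, without and with tBHP. Points are libraries, lines group means and error bars SD (n = 3). WWTR1 is above 5000 in all 9 stressed libraries, and the stressed TEAD1 and YAP1 libraries run from 5731 to 12705 and from 4321 to 7168.

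Whether HA alone changed these genes was asked in the unstressed libraries. None of the 10 passed in any of the 3 comparisons, and none of the 13686 genes did (0% of all genes). At an unadjusted p under 0.05, 0 of the 10 genes passed in each, and 126, 109 and 206 of all genes in cNSF-HA against PBS, fNSF-HA against PBS and cNSF-HA against fNSF-HA. edgeR on the recovered reads called 0 genes in each, and DESeq2 called 0, 3 and 0, none of them among the 10. The log2 differences of the 10 genes lay between -0.14 and 0.08, with 95% intervals inside -0.50 to 0.45. The ANKRD1 interval was -0.42 to 0.32 for cNSF-HA against PBS and -0.29 to 0.45 for fNSF-HA against PBS, whose libraries also entered the choice of ANKRD1, while that of CTGF was -0.17 to 0.04 and -0.10 to 0.11. YAP1 was lower in each cNSF-HA library than in each fNSF-HA library, with a log2 difference of -0.14, and 4 of the 10 genes did not overlap in that comparison, as 25% of all genes did not. The YAP1 difference had an adjusted p of 1.0 with the spread of all 18 libraries and of 0.0044 with the spread of those 2 groups alone, where 980 genes (7.16%) were called.

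The comparison between cNSF-HA and fNSF-HA in stressed cells asks whether HA of different polymer length left these genes at different levels. None of the 10 passed, and none of all genes (0%), although 4412 of all genes and 3 of the 10 (CTGF, YAP1 and TEAD1) had an unadjusted p under 0.05. CTGF was 1.11-fold higher after cNSF-HA (log2 difference 0.15, 95% interval 0.04 to 0.25, adjusted p = 0.098), with all 3 libraries above the fNSF-HA ones. It was the only one of the 10 whose libraries did not overlap here, where 13.4% of all genes did not. YAP1 was lower after cNSF-HA (log2 difference -0.30, interval -0.50 to -0.10, adjusted p = 0.098), as was TEAD1 (-0.36, interval -0.68 to -0.05, adjusted p = 0.11). ANKRD1 differed by 0.12 with an interval of -0.24 to 0.49 (adjusted p = 0.63), which spans differences in either direction.

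The YAP1, TEAD1 and ANKRD1 differences leaned on few libraries, while that of CTGF stayed between 0.12 and 0.18 with any single library left out. Without the 2 that stood apart, the log2 difference was 0.12 for CTGF (interval 0.02 to 0.21, adjusted p = 0.71), -0.08 for YAP1 (interval -0.23 to 0.06) and 0.03 for TEAD1 (interval -0.11 to 0.17), and ANKRD1 turned to -0.04 (interval -0.44 to 0.36). Without fNSF-HA replicate 3 with tBHP, 4 of the 10 passed, beside 5586 of all genes (40.8%): YAP1 (-0.41, adjusted p = 0.0029), TEAD1 (-0.49, adjusted p = 0.015) and WWTR1 (-0.19, adjusted p = 0.046) were lower after cNSF-HA and AMOTL2 (0.31, adjusted p = 0.028) was higher. DESeq2 on the recovered reads called 923 genes (6.74%), with CTGF higher (adjusted p = 0.031) and YAP1 lower (adjusted p = 0.046) after cNSF-HA, and edgeR called 0.

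**Figure D4:**
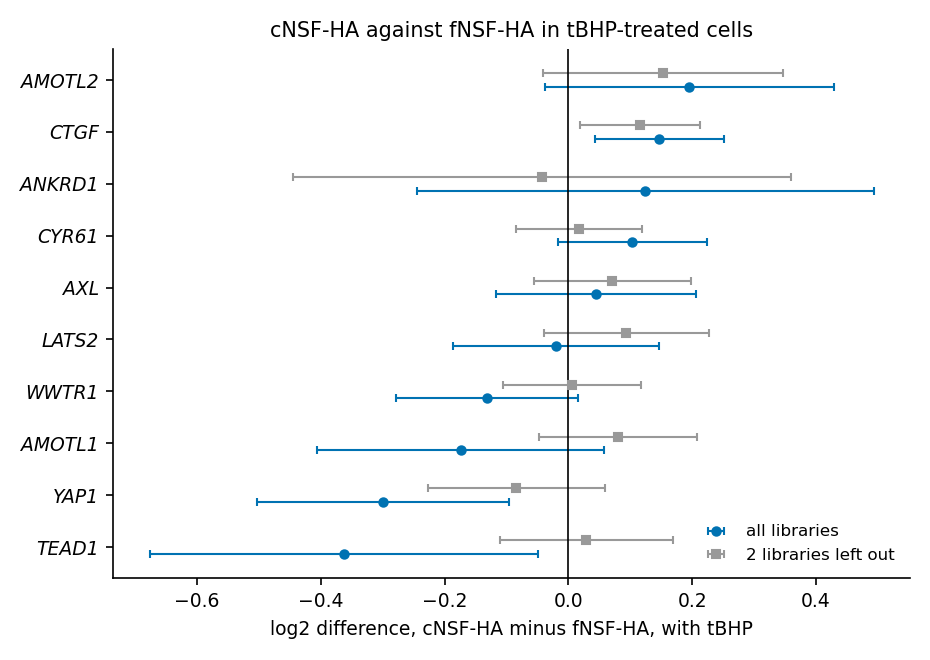
The log2 difference between cNSF-HA and fNSF-HA in tBHP-treated cells (x axis) for the 10 genes (y axis), with all libraries (circles) and without cNSF-HA replicate 3 and fNSF-HA replicate 2 (squares). Bars are 95% intervals from limma; TEAD1 moves from -0.36 to 0.03 and YAP1 from -0.30 to -0.08, while CTGF moves from 0.15 to 0.12.

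In the comparisons with stressed PBS-treated cells ANKRD1 is described and not tested, because its low level in those 3 libraries chose it and favours a higher value elsewhere. Its log2 difference from them was 0.43 after cNSF-HA and 0.30 after fNSF-HA. The 3 cNSF-HA libraries, at 114 to 129, were above the 3 PBS libraries, at 73.8 to 103, whereas the fNSF-HA libraries overlapped both. CTGF had a log2 difference of 0.16 after cNSF-HA (interval 0.06 to 0.27, adjusted p = 0.50) and of 0.01 after fNSF-HA (interval -0.09 to 0.12). None of the other 9 genes passed in either comparison, where 0 (0%) and 19 of all genes (0.139%) did. At an unadjusted p under 0.05 the first held 1183 genes, CTGF among them, and the second 3102 genes and none of the 9, while DESeq2 called 5 and 442 genes and edgeR 0 and 36, again with none of the 9. The 10 genes included 3 with no overlap between cNSF-HA and PBS, ANKRD1 being one, and 1 between fNSF-HA and PBS, beside 9.57% and 12% of all genes. Without fNSF-HA replicate 3 with tBHP 29.4% of all genes passed in fNSF-HA against PBS and none of the 9 did, and the log2 difference of ANKRD1 was 0.47.

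A difference in the tBHP response itself between pre-incubations was tested as an interaction, and none of all genes passed in any of them (0%). In cNSF-HA against fNSF-HA the test covered all 10 genes. In the interactions with PBS, whose response chose ANKRD1, that gene is described and not tested, and the result is read for the rest of the 10. The log2 responses of ANKRD1 after cNSF-HA and fNSF-HA differed by 0.25 (interval -0.27 to 0.78, adjusted p = 0.72), an interval that spans either direction. Its response after cNSF-HA differed from that after PBS by 0.48, given without a test because the PBS response chose the gene. At an unadjusted p under 0.05 the interaction held 555, 942 and 533 of all genes for cNSF-HA against PBS, fNSF-HA against PBS and cNSF-HA against fNSF-HA. Of the 10 genes, with ANKRD1 read only in the last, these included CTGF in the first and the last. DESeq2 called 0, 6 and 0 genes and edgeR 0 in each, with none of the 10 among them, ANKRD1 again being read only in the last.

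The rest of the pathway was read from lists of other YAP targets, Hippo pathway genes and TEAD partners. Of 16 other YAP targets, 13 fell and 1 rose after cNSF-HA and 9 fell and 1 rose after fNSF-HA, with medians of -0.45 and -0.35 on the log2 scale. Over all genes 26.8% fell and 24% rose after cNSF-HA and 22.7% fell and 19.2% rose after fNSF-HA, with medians of 0.00 and -0.03. The counts and medians of this list and those below use all 18 libraries. In cNSF-HA replicate 3 with tBHP some of the 16 lay far below their group, such as PTPN14 (3080 against 5091 and 4791). Others lay above it, such as FJX1 (590 against 496 and 439). How far the list counts rest on that library was not tested. F3, which encodes tissue factor, fell by 1.34 and 1.28 after cNSF-HA and fNSF-HA (adjusted p = 1.6e-07 and 2.8e-07), and the RNA-binding protein gene RBMS3 fell by 1.29 and 1.14. With the GC and length trend removed RBMS3 had -0.72 after cNSF-HA. FJX1, the homolog of Drosophila four-jointed, fell by 0.80 and 0.98. GADD45A was the exception, with rises of 1.21 and 1.14 (adjusted p = 3.7e-08 and 8.3e-08). It is a growth arrest gene that p53 also induces.

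Of 30 Hippo pathway genes 29 were tested. After cNSF-HA 16 of them fell and 2 rose, where 26.8% of all genes fell and 24% rose. After fNSF-HA 11 fell and 3 rose, where 22.7% of all genes fell and 19.2% rose. The median log2 changes of the 29 were -0.35 and -0.20. TNIK, a kinase related to the MAP4K group upstream of LATS, fell by 1.49 and 1.30. AMOT, the angiomotin that founds the family of AMOTL1 and AMOTL2, fell by 1.28 and 0.95. FAT4, a giant protocadherin upstream of the pathway, fell by 0.95 and 0.74, and FRMD6, a membrane scaffold, fell by 0.79 and 0.63. With the GC and length trend removed FAT4 had -0.62 after cNSF-HA and FRMD6 -0.40 after both. 

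Of the TEAD1 paralogs 2 rose with tBHP, beside 24% and 19.2% of all genes. TEAD3 rose by 0.72 and 0.50 after cNSF-HA and fNSF-HA (adjusted p = 7.9e-06 and 0.00040) and TEAD2 by 0.38 and 0.26 (adjusted p = 0.00010 and 0.0034). The TEAD2 rise after cNSF-HA was lost with the GC and length trend removed (log2 change 0.07, adjusted p = 0.29), where TEAD3 had 0.42. The TEAD2 rise after fNSF-HA was 0.17 with that removal (adjusted p = 0.017) and was lost when only those groups were fitted (adjusted p = 0.056). TEAD4 had changes of 0.17 and -0.05 and did not pass. Of the vestigial-like cofactors that compete with YAP for TEAD, VGLL3 fell by 0.77 and 0.60 (log2 changes of -0.20 and -0.27 with the GC and length trend removed). Its second call was lost when only those groups were fitted (adjusted p = 0.068) and without fNSF-HA replicate 3 with tBHP (adjusted p = 0.051). VGLL4 had changes of 0.06 in both and did not pass, and VGLL1 and VGLL2 had no reads in any library. Other CCN family members related to CTGF and CYR61 were nearly silent: NOV lay between 13.1 and 43.8 normalized counts and did not pass, and WISP2 stayed at or below 10.4. The muscle ankyrin repeat paralogs of ANKRD1 were as low, with ANKRD2 at 7.45 to 19.6 and ANKRD23 at 0.933 to 25.0, and ANKRD2 did not pass in either response.

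**Figure D5:**
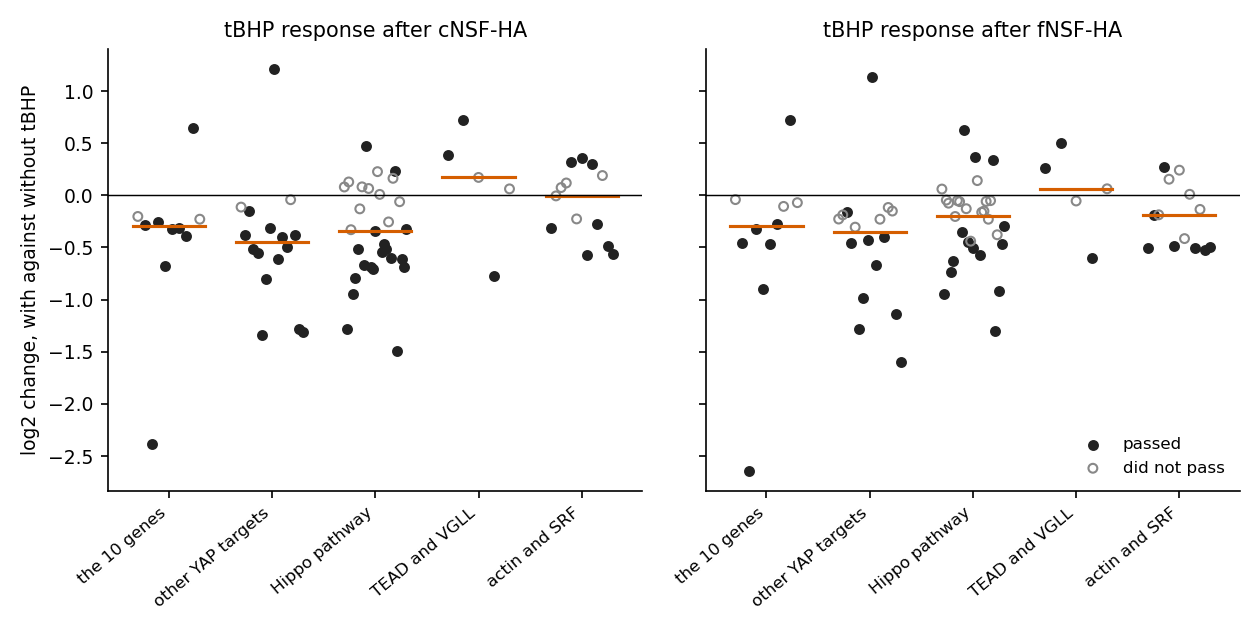
The log2 change with tBHP (y axis) of the genes of each list after cNSF-HA (left) and fNSF-HA (right). Filled points passed limma at an adjusted p under 0.05, open points did not, and orange lines are list medians, -0.45 and -0.35 for the other YAP targets and -0.30 in both panels for the 10 genes.

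Over the 18 libraries, the genes with the profile most like that of ANKRD1 were HEATR3 (Pearson r 0.993), CCNB1 (0.993), KNSTRN (0.989), CTGF (0.988) and SKA3 (0.988), among 10208 genes with a mean of at least 100. CCNB1 encodes cyclin B1, KNSTRN and SKA3 encode kinetochore and spindle proteins, and HEATR3 a HEAT repeat protein. Their mean levels in PBS-treated cells without and with tBHP were 745 and 361 for HEATR3, 5618 and 2506 for CCNB1, 1906 and 1261 for KNSTRN, and 1716 and 990 for SKA3. The libraries form 2 sets, stressed and unstressed, and these correlations mostly repeat that split. Because the samples are bulk RNA, fewer cells with a transcript and less of it per cell cannot be told apart in any of these values.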

How the data were processed

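RNA from 18 samples of IMR90 cells was made into unstranded libraries and sequenced as single 100 nt reads by the authors. Per the submitters' processing notes the tools were Trimmomatic 0.32, STAR 2.5.2b, featureCounts of Subread 1.5.0-p3 and DESeq2, on genome build GRCh38.p7. The annotation is not given in the sources used here. The deposited signal is the read count per gene divided by a DESeq2 size factor, called normalized count here. All values were whole multiples of 1 read within a tolerance of 0.01 (100%), so reads could be recovered. Depth was 20261103 to 26287660 reads on genes. The deposited table also holds the authors' p-values, q-values and ranking, which were not used.

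The main test was limma 3.58.1 in R 4.3.3 with a mean-variance trend on log2(normalized count + 1), with 1 coefficient per group over all 18 libraries. Genes with a mean of at least 10 entered (13686), p-values were two-sided and adjusted by Benjamini-Hochberg, and the threshold was 0.05. Fold changes are on the log2(value + 1) scale. Alternatives were edgeR 4.0.16 (quasi-likelihood, TMM) and DESeq2 1.42.0 on the recovered reads, other pseudocounts and filters, rescaling to a common median, only the groups compared, the replicate number as a block, removal of GC and length trends (available for 91.4% of genes tested) and each library left out. All 3 tools were tested on simulated data. Leaving out both libraries that stood apart was added after seeing the data. Replicate numbers are not said to pair libraries, so the main fit has no block.

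The 10 genes and the lists were chosen with earlier results of these data known. Named besides the 10 were the 5 genes most correlated with ANKRD1, up to 4 genes per list with the largest change after cNSF-HA that passed with the same sign after both HA preparations and had a mean of at least 100, SRF, and the paralogs of the 10. Results of 1 further gene list are not reported here. Marker lists covered fibroblast, epithelial, endothelial, immune and muscle genes. Gene models were from GENCODE 29 and promoter windows from RefSeq.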

Additional observations from a re-analysis of the deposited data

Results flagged for a closer look

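The differences in CTGF between cNSF-HA and the other 2 pre-incubations had opposite signs without and with tBHP, but the change between them did not pass the test over all genes. Against PBS, CTGF after cNSF-HA had a log2 difference of -0.07 without tBHP (95% interval -0.17 to 0.04, which includes 0) and of 0.16 with it (interval 0.06 to 0.27). The change between both, 0.23, had an unadjusted p of 0.0044 in limma and an adjusted p of 1.0 over all genes. Against fNSF-HA the log2 differences were -0.07 and 0.15, and the change of 0.22 had an unadjusted p of 0.0063 and an adjusted p of 0.71. These 2 were all that stood out among 30 combinations of gene and contrast examined, and both share the cNSF-HA libraries. The combinations of ANKRD1 with a contrast against PBS are among the 30 and are not read as tests.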

How the results depend on the processing

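The number of the 10 genes that passed kept within 1.5 times its value under most alternatives. It became 8 instead of 5 in the tBHP response after PBS without both libraries that stood apart, where the share of all genes went from 51.1% to 62.3% and nothing is read from the count, and 5 instead of 8 after cNSF-HA with edgeR, where 52.6% of all genes passed. It became 1 instead of 0 in cNSF-HA against fNSF-HA without tBHP when only those groups were fitted, and 2 instead of 0 in the same comparison with tBHP with DESeq2. With single libraries left out it ran from 0 to 1 in fNSF-HA against PBS with tBHP and from 0 to 4 in cNSF-HA against fNSF-HA with tBHP, both highest without fNSF-HA replicate 3. The 1 was ANKRD1, whose choice favours a higher value than in stressed PBS-treated cells. With the replicate block 5, 9 and 7 of the 10 passed after PBS, cNSF-HA and fNSF-HA, beside 7228, 7176 and 5944 of 13686 genes. YAP1 after cNSF-HA was the gene added (limma, adjusted p = 0.034). With the block and the GC and length trend removed 7 passed in each, beside 7322, 7192 and 7089 of 12503 genes. YAP1 after cNSF-HA was then not among them (log2 change -0.016, adjusted p = 0.77). Nothing is read from the PBS counts. Same-numbered libraries' deviations from the group means were correlated, and pairing was to be read only if every correlation was over 0.1. Between unstressed and stressed groups of the same pre-incubation they correlated by -0.037 to 0.10, with 1 of 9 over 0.1. Over all 45 pairs the range was -0.12 to 0.33, with 7 over 0.1 and the 3 highest between stressed groups. Libraries of different number were not compared, so this check cannot exclude a pairing.

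Several log2 changes turned sign, all of them in values that did not pass. After fNSF-HA, edgeR gave 0.022 for AMOTL1 and 0.0010 for YAP1, and removal of the GC and length trend, with or without the block, gave 0.093 for TEAD1 and 0.028 for YAP1. In cNSF-HA against fNSF-HA with tBHP, that removal gave -0.026 for AXL and 0.084 for WWTR1, edgeR gave 0.013 for LATS2, and leaving out both libraries gave -0.043 for ANKRD1, 0.080 for AMOTL1, 0.094 for LATS2, 0.029 for TEAD1 and 0.0054 for WWTR1. With single libraries left out, the response after fNSF-HA ran from -0.11 to 0.026 for AMOTL1, -0.26 to 0.024 for TEAD1 and -0.19 to 0.041 for YAP1. The difference between cNSF-HA and fNSF-HA with tBHP ran from -0.044 to 0.42 for ANKRD1, -0.27 to 0.012 for AMOTL1, -0.015 to 0.13 for AXL and -0.078 to 0.090 for LATS2. The ANKRD1 interaction of fNSF-HA against PBS ran from -0.067 to 0.39. The cause of these shifts was not tested.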

Other observations

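Of 13 genes of the actin and SRF axis, which links the pathway to the cytoskeleton, 5 fell and 3 rose with tBHP after cNSF-HA. After fNSF-HA 6 fell and 1 rose. In the same limma fit 26.8% of all genes fell and 24% rose after cNSF-HA, and 22.7% fell and 19.2% rose after fNSF-HA. VCL (vinculin) fell by 0.56 and 0.50 on the log2 scale, TPM1 (a tropomyosin) by 0.49 and 0.53, and ACTA2 (smooth muscle actin) by 0.32 and 0.50. SRF, the transcription factor of many of these genes, fell by 0.27 and 0.50 (adjusted p = 0.020 and 0.00026). The first of these was lost with edgeR (adjusted p = 0.073), without cNSF-HA replicate 1 (adjusted p = 0.071) and without cNSF-HA replicate 3 with tBHP (adjusted p = 0.052). With the GC and length trend removed, the changes after cNSF-HA were -0.36 for VCL, -0.56 for ACTA2 and -0.55 for SRF.

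PBS replicate 1 without tBHP held transcripts of 3 heart and skeletal muscle genes that were absent or nearly so in the other 17 libraries. MYH6 counted 80.1 and MYH7 59.9 normalized counts there and 0 in the other 17, and TNNT2 counted 26.1 there and at most 2.19 elsewhere. DES, another muscle marker, counted 21.2 there and up to 32.7 elsewhere, and MYOD1 and MYOG had no reads in any library. The 6 muscle markers summed to 187 in that library. ANKRD1, which muscle also expresses, counted 686 in it, as in PBS replicate 3. Without PBS replicate 1 the log2 change of ANKRD1 with tBHP in PBS-treated cells was -2.84.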
